A study of Mus musculus with 2 samples.

Results

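Immediate early genes and heat shock genes, which are transcribed within minutes of a stimulus, were followed across the cells of mouse epididymal fat. The 34 members, 28 early response genes and 6 heat shock genes, were a list of gene names, and all 34 were among the 29417 genes of the count table. The cells were the stromal vascular fraction, what remains of fat once the floating adipocytes are taken off, from wild-type (WT) male C57BL/6J mice. Mice had a high-fat diet (HFD) for 8 or 16 weeks, or a standard diet (SD) for 16 weeks. Every tissue was minced and digested at 37 °C with Liberase, a collagenase blend. Suspensions were marked with hashtag antibodies, each carrying a barcode, and pooled for 1 BD Rhapsody capture with TAS-seq amplification, which gave 1 transcriptome library and 1 hashtag library. The labels do not say which diet a hashtag stands for, so the 9 hashtag populations are unassigned samples, and diets were not compared. Since all cells went through digestion, transcripts already present in the tissue and those made during digestion cannot be told apart.

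Early response genes need no new protein for their induction: kinase and calcium signals act on transcription factors that already sit at their promoters. Many encode transcription factors (the FOS, JUN, EGR, NR4A and KLF families), and others encode proteins that end the signal, such as the phosphatase Dusp1 and Zfp36, which destabilises mRNA. Heat shock genes encode chaperones that heat shock factor 1 induces when proteins unfold. Both groups are known to be induced when tissue is dissociated with warm enzymes.

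After limits on genes and mitochondrial reads and removal of doublets, 10286 cells were analysed, 810 to 1428 per hashtag population, with a median of 36709 reads and 2763.5 genes per cell. Levels are given as CPM, a gene's reads scaled by all reads of the class. Because reads are not molecules, Poisson intervals reflect counting alone and understate the error. For 24 members values ran down to 1 read per cell, and for 10 the lowest value above 0 was 7 to 14 reads. In these 10, Fos, Jun, Egr1 and Socs3 among them, a 0 can hide a low value. The members and related genes were kept out of the genes used for clustering. From 25 clusters, 13 classes of at least 50 cells were named by their markers, and 734 cells (7.14%) stayed unnamed. The most numerous were macrophage-like (3609), fibroblast-like (3132) and endothelial-like cells (1002). C1qa stood at 1064 CPM in macrophage-like cells and at no more than 175 CPM elsewhere, and Pecam1 at 1693 CPM in endothelial-like cells and 636 CPM in lymphatic endothelial-like cells, the next class. Other endothelial markers set these 2 classes less apart. Kdr was at 725 CPM in endothelial-like and 667 CPM in lymphatic endothelial-like cells. Tie1 was at 323 and 331 CPM in the same order. The adipocyte gene Adipoq was at 1.49 CPM over all analysed cells. In macrophage-like subclusters of 89 and 54 cells and a fibroblast-like one of 78 cells, at least 80% of another class's markers were 2-fold higher than in the rest of the class, and without these cells the counts between fibroblast-like and macrophage-like cells given later were still 21 and 0.

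Of the summed reads of a class, early response members took the largest share in lymphatic endothelial-like and type 2 innate lymphoid cell-like cells and the smallest in macrophage-like cells. The 28 early response members held 4.89% of all reads in the 65 lymphatic endothelial-like cells and 3.70% in the 104 type 2 innate lymphoid cell-like cells. Mural-like (3.01%), mesothelial-like (2.98%) and fibroblast-like cells (2.68%) came next. Other epithelial-like (1.69%), endothelial-like (1.66%), natural killer cell-like (1.65%) and T cell-like cells (1.61%) lay close together. The share was 1.25% in B cell-like cells, 1.18% in type 1 and 1.18% in type 2 conventional dendritic cell-like cells, and 1.11% in macrophage-like cells. The 6 heat shock members followed another order, with 0.291% in mesothelial-like, 0.219% in mural-like, 0.188% in endothelial-like, 0.179% in fibroblast-like, 0.0840% in macrophage-like and 0.0768% in B cell-like cells.

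Single members peaked in different classes. Lymphatic endothelial-like cells were highest for 12 of the 34, among them Fos, Jun, Egr1, Klf2, Klf4 and Dusp1. Fos was at 12242 CPM there (exact 95% Poisson interval 12086 to 12399.7 CPM, from 65 cells), and at 8425 CPM in mural-like cells, the next class. Type 2 innate lymphoid cell-like cells were highest for 10 members, with Nr4a1 at 2686 CPM, and mesothelial-like cells, next in order for Nr4a1, were at 1050.1 CPM. Natural killer cell-like cells were highest for Fosl2, Nr4a2, Ier5, Dusp2 and Hsp90aa1, and mesothelial-like cells for Ier3, Hspa1b and Hspb1. Myc was highest in fibroblast-like, Hspa1a in mural-like, Dnajb1 in other epithelial-like and Egr2 in type 1 conventional dendritic cell-like cells. Macrophage-like cells were lowest for 11 members and natural killer cell-like cells for 8. The same ranking was not made over all genes, so these counts do not set the members apart. Lymphatic endothelial-like (65 cells), type 2 innate lymphoid cell-like (104) and natural killer cell-like cells (101) had no hashtag population of at least 50 cells. Their levels thus come without a range over populations.

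**Figure D1:**
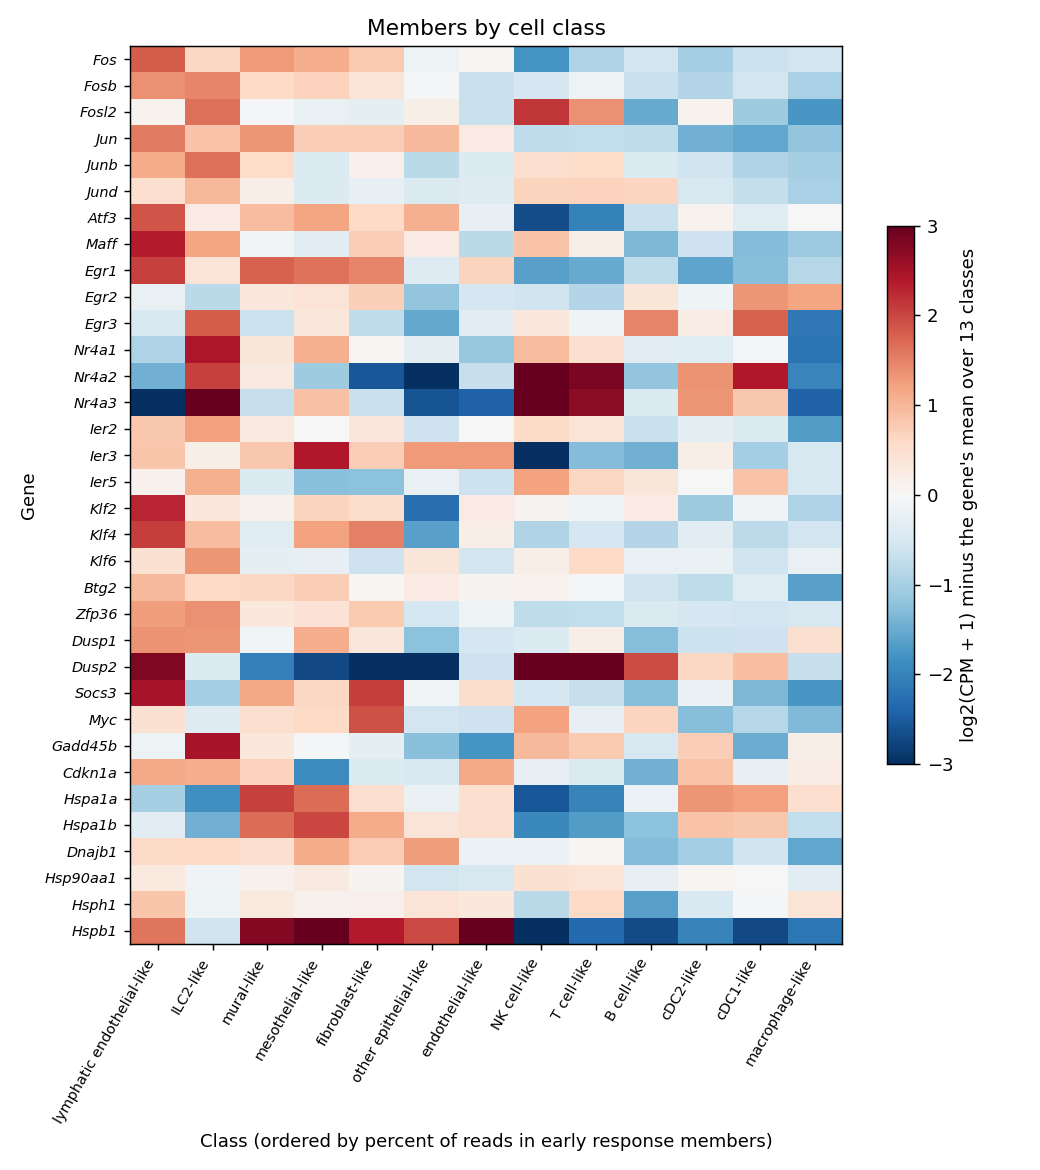
Level of each of the 34 members (rows) in the 13 classes (columns), as log2(CPM + 1) of summed reads minus the gene's mean over the classes, with colours ending at 3 on either side. Classes run by their share of early response reads; most early response rows are red in lymphatic endothelial-like cells at the left and blue in macrophage-like cells at the right, while Nr4a2, Nr4a3 and Dusp2 are dark red in natural killer cell-like and T cell-like cells.

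Fibroblast-like cells held more of most members than macrophage-like cells did. A member counts as called when (CPM + 1) differed at least 2-fold and 1 of both classes had at least 20 CPM in summed reads. No test was made, since hashtag populations without a diet label were not used as replicates; their ranges and directions are given instead. Of the 33 members that reached 20 CPM, 21 were called higher and 0 lower, and of all 7747 genes that did, 21.6% were called higher and 17.3% lower. The median log2 fold was 1.35 over the members and 0.0048 over all genes. Only Dusp2 stayed under 20 CPM in both classes. With each cell weighted the same, or each thinned to 5000 reads, Egr3 and Ier3 were no longer called.

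Of the 8 AP-1 members, FOS and JUN proteins and partners that bind DNA as dimers, 6 were called higher. Fos (chr12:85473890-85477273, plus strand, build GRCm38) was at 4336, 6285 and 7026 CPM in the lowest, median and highest fibroblast-like population, against 1992, 2221 and 3110.2 CPM in macrophage-like populations. These ranges do not overlap, and the summed levels were 2.54-fold apart. Jun (chr4:95049034-95052222, minus strand) was at 1959.9, 2644 and 2932 CPM in the lowest, median and highest fibroblast-like population, against 573, 739 and 1066 CPM in macrophage-like populations, again without overlap and 3.76-fold apart in the sums. Maff, a small MAF protein, was 3.59-fold higher, Fosl2 2.77-fold, Fosb 2.55-fold and Junb 2.21-fold. Ranges of Fosl2 and Junb overlap. In the lowest fibroblast-like population Fosl2 was at 85.5 CPM and Junb at 613 CPM. In the highest macrophage-like population they were at 113 and 777 CPM. How many of all genes have ranges without overlap was not counted. Jund (1.66-fold) and Atf3, a stress-induced ATF family factor (1.51-fold), were within the limit, though above macrophage-like cells in 9 of 9 hashtag populations.

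The EGR zinc fingers, the NR4A nuclear receptors and the IER genes each had 2 of 3 members called higher. Of those called, Egr3, Nr4a3 and Ier3 had overlapping ranges. In the lowest fibroblast-like population they were at 10.6, 27.7 and 85.1 CPM. In the highest macrophage-like population they were at 21.8, 62.0 and 186 CPM. Egr1 was at 1909.9, 2934 and 3368 CPM in the lowest, median and highest fibroblast-like population, against 249, 678 and 857 CPM in macrophage-like populations. All fibroblast-like populations lay above all macrophage-like ones, and the sums were 4.98-fold apart. Egr2 was at 49.6 CPM in fibroblast-like cells, against 68.1 CPM in macrophage-like cells, within 2-fold. Nr4a1, an orphan nuclear receptor, was at 354, 479 and 672 CPM in the lowest, median and highest fibroblast-like population, against 50.9, 136 and 171 CPM in macrophage-like populations. The Nr4a1 ranges did not overlap, and the sums were 4.71-fold apart. Its relative Nr4a2 was at 16.9 CPM in fibroblast-like cells, against 25.6 CPM in macrophage-like cells. Ier2 was at 438, 544 and 661 CPM in the lowest, median and highest fibroblast-like population, against 70.2, 149 and 273 CPM in macrophage-like populations. Fibroblast-like populations again lay higher throughout, and Ier5, another IER family member, was within 2-fold at 83.1 CPM in fibroblast-like cells, against 141 CPM in macrophage-like cells.

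Among the KLF zinc fingers, Klf4 was at 1767, 2191 and 2968 CPM in the lowest, median and highest fibroblast-like population, against 421, 565 and 621 CPM in macrophage-like populations, without overlap and 4.30-fold apart in the sums. Klf2, a regulator of endothelial and lymphocyte quiescence, was 2.77-fold higher, and Klf6 was within 2-fold. Of the early response members, Socs3, which blocks cytokine receptor signalling through STAT3, stood farthest apart in the values as deposited. Socs3 was at 678, 1078 and 1253 CPM in the lowest, median and highest fibroblast-like population, against 52.8, 68.1 and 326 CPM in macrophage-like populations. The ranges do not meet and the sums were 14.4-fold apart. Its low values are missing from the table, and putting the largest hidden value in place of each 0 gave 8.60-fold, below Myc. The growth-promoting factor Myc was 9.62-fold higher, the antiproliferative gene Btg2 3.20-fold and Zfp36 2.38-fold. Zfp36 ranges overlap, with 1232 CPM in the lowest fibroblast-like and 1334 CPM in the highest macrophage-like population. Dusp1, within 2-fold, overlapped too. It was at 697, 863 and 980.0 CPM in the lowest, median and highest fibroblast-like population. In macrophage-like populations it was at 748, 912 and 1193 CPM. Cdkn1a, the cell cycle inhibitor of the CIP family, was at 175 CPM in fibroblast-like cells, against 272 CPM in macrophage-like cells, and like Gadd45b was within 2-fold.

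Mural-like and mesothelial-like cells also held more of most members than macrophage-like cells. In mural-like cells 22 of 33 were called higher and 0 lower (30.2% and 15.9% of all genes). The higher count was 16 with each cell weighted the same, 17 with cells thinned to 5000 reads and 18 with at most 10% mitochondrial reads. Jun was at 3862 CPM in mural-like cells, against 679.6 CPM in macrophage-like cells. Egr1 was at 3453 CPM in mural-like cells, against 557 CPM in macrophage-like cells, and Nr4a2 at 124 CPM in mural-like cells, against 25.6 CPM in macrophage-like cells. In mesothelial-like cells 20 of 33 were called higher and 1 lower (23.0% and 17.6% of all genes). With each cell weighted the same 17 were called higher and 3 lower, and with cells thinned to 5000 reads 17 and 4. The widest gap among early response members was in Nr4a3, at 157 CPM in mesothelial-like cells, against 15.1 CPM in macrophage-like cells. Ier3, a regulator of survival, was at 453 CPM in mesothelial-like cells, against 60.8 CPM in macrophage-like cells. On summed reads the 1 member called lower was Cdkn1a, at 62.2 CPM in mesothelial-like cells, against 272 CPM in macrophage-like cells.

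T cell-like cells differed from macrophage-like cells in other members: 15 of 33 were called higher and 3 lower (29.6% and 18.2% of all genes). With each cell weighted the same, or each thinned to 5000 reads, 12 were called higher and 5 lower. At most 10% mitochondrial reads gave 12 higher and 3 lower. NR4A receptors are known as early products of antigen receptor signalling, whose part here was not tested. The NR4A genes held 0.199% of reads in T cell-like, 0.323% in natural killer cell-like and 0.400% in type 2 innate lymphoid cell-like cells. Nr4a3 was at 551 CPM in T cell-like cells, against 15.1 CPM in macrophage-like cells (36.5-fold). Nr4a2 was at 739 CPM in T cell-like cells, against 25.6 CPM in macrophage-like cells (28.9-fold). Dusp2, a phosphatase of lymphocytes, was at 316 CPM in T cell-like cells, against 18.2 CPM in macrophage-like cells. These 3 were the members farthest apart. Fosl2 followed, at 377 CPM in T cell-like cells, against 43.0 CPM in macrophage-like cells. On summed reads, Atf3, Egr2 and Hspa1a were called lower. Atf3 was at 261 CPM in T cell-like cells, against 1080.1 CPM in macrophage-like cells. Hspa1a was at 16.8 CPM in T cell-like cells, against 100.3 CPM in macrophage-like cells. With each 0 replaced by the largest hidden value, Atf3 was no longer called and 2 members were lower.

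**Figure D2:**
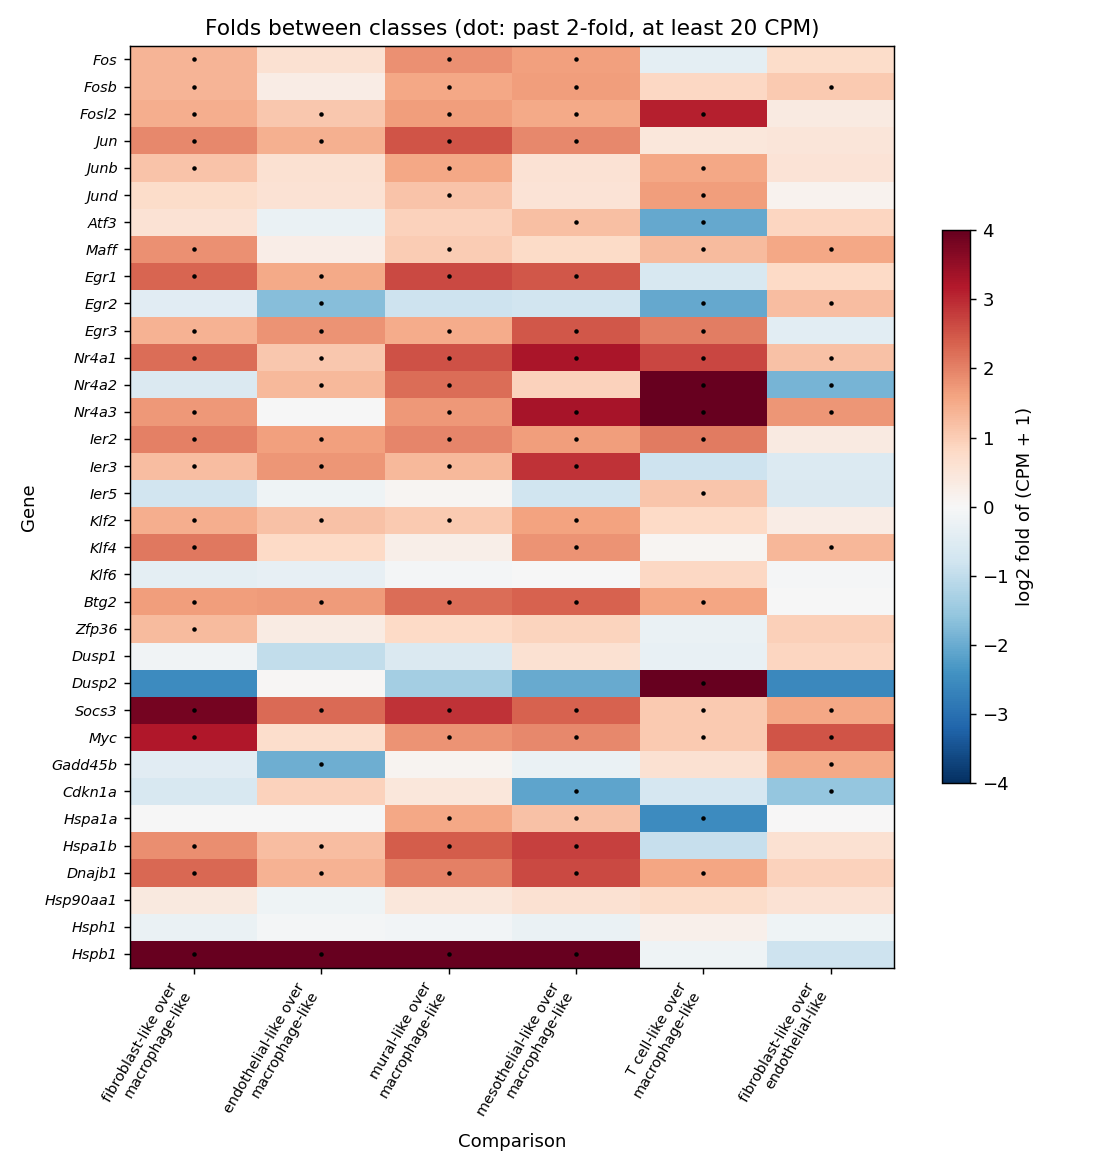
Log2 fold of (CPM + 1) of the 34 members (rows) in 6 comparisons (columns, the first-named class over the second), with colours ending at 4 on either side and a dot where a member was called. Most rows are red in the fibroblast-like, mural-like and mesothelial-like columns, and Nr4a2, Nr4a3 and Dusp2 are darkest red in the T cell-like column.

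How endothelial-like cells compared with macrophage-like cells depended on how cells were weighted. On summed reads 14 of 32 members were called higher and 2, Egr2 and Gadd45b, lower (27.5% and 14.8% of all genes). With each cell weighted the same, or each thinned to 5000 reads, 4 were called higher. In the sums Fos was at 3628 CPM in endothelial-like cells, against 2386 CPM in macrophage-like cells. As a mean over cells Fos was at 2579.7 CPM in endothelial-like cells, against 2786 CPM in macrophage-like cells. The direction for Fos thus differed between both ways of averaging. Jun was at 1814 CPM in endothelial-like cells, against 679.6 CPM in macrophage-like cells in the sums. As a mean over cells it was at 1341 CPM in endothelial-like cells, against 837 CPM in macrophage-like cells, no longer 2-fold apart.

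The early response share of a cell had its 10th, 50th and 90th percentile at 0.569%, 2.74% and 5.38% in fibroblast-like cells, 0.127%, 0.540% and 3.72% in endothelial-like cells and 0.310%, 0.990% and 2.62% in macrophage-like cells. At the median endothelial-like cells lay below macrophage-like cells, although their share of summed reads was higher, and at the 90th percentile above them. For Fos, the lowest value above 0 was 14 reads. Median depth was 14779.5 reads in endothelial-like and 65921 reads in macrophage-like cells. Fos had reads in 39.8% of endothelial-like and 87.0% of macrophage-like cells. The part of missing low values in the per-cell shares was not tested. Depth moved with the share of summed reads. In endothelial-like cells it was 1.04%, 0.817%, 1.27% and 2.16% from the shallowest to the deepest of 4 equal groups by depth, whose median reads were 6820, 11395.5, 18566 and 35438. In fibroblast-like cells it was 3.28%, 3.10%, 3.04% and 2.26%, and in macrophage-like cells 1.48%, 1.54%, 1.25% and 0.897%. The median share per cell, in the same order of depth, was 0.426%, 0.412%, 0.557% and 1.19% in endothelial-like cells. It was 2.87%, 2.94%, 3.02% and 2.16% in fibroblast-like and 1.02%, 1.23%, 1.04% and 0.803% in macrophage-like cells. The part of depth was not tested. Of both endothelial-like clusters, the one led by Lrg1 and Vwf (155 cells, median 25049 reads) held 2.39% early response reads and the other (847 cells, median 13813 reads) 1.43%.

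Fibroblast-like cells had 9 of 33 members called higher than endothelial-like cells and 2 lower (14.1% and 19.1% of all genes). With each cell weighted the same, or thinned to 5000 reads, 17 were called higher, and with each 0 replaced by the largest hidden value 6 were. Myc was at 257 CPM in fibroblast-like cells, against 43.8 CPM in endothelial-like cells. Called lower were Nr4a2, at 16.9 CPM in fibroblast-like cells, against 63.7 CPM in endothelial-like cells, and Cdkn1a, at 175 CPM in fibroblast-like cells, against 511 CPM in endothelial-like cells.

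**Figure D3:**
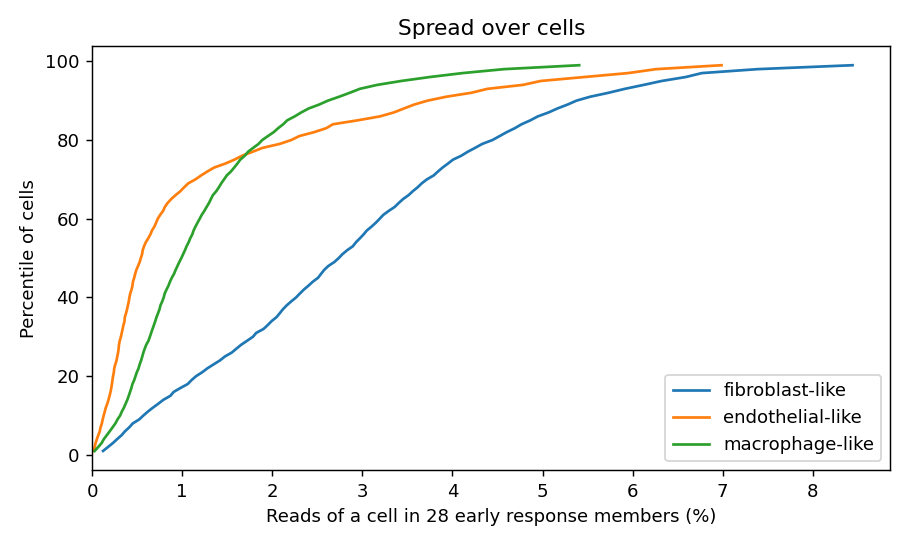
Share of a cell's reads in the 28 early response members (x axis, percent) against the percentile of cells (y axis) in fibroblast-like, endothelial-like and macrophage-like cells. The endothelial-like curve lies left of the macrophage-like one at the median (0.540% against 0.990%) and right of it at the 90th percentile (3.72% against 2.62%). Missing low values of 10 members were not filled in.

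Of the 6 heat shock members, 3 were called higher in fibroblast-like cells when set against macrophage-like cells and 0 lower (21.6% and 17.3% of all genes). Hspb1, a small heat shock protein that holds unfolded proteins (chr5:135887919-135889563, plus strand), was at 462, 516 and 748 CPM in the lowest, median and highest fibroblast-like population, against 16.9, 27.6 and 82.8 CPM in macrophage-like populations. The ranges lie far apart: the sums were 24.4-fold higher in fibroblast-like, 43.5-fold in endothelial-like and 56.7-fold in mesothelial-like than in macrophage-like cells. Dnajb1, the co-chaperone that passes clients to HSP70, was at 228 CPM in fibroblast-like cells, against 45.4 CPM in macrophage-like cells. Hsph1, which exchanges nucleotide on HSP70, was at 72.7 CPM in fibroblast-like cells, against 87.0 CPM in macrophage-like cells, and like Hsp90aa1, the inducible HSP90, was within 2-fold. Stress-inducible HSP70 comes from a pair of neighbouring genes on chromosome 17. Hspa1b was at 47.8, 58.9 and 74.5 CPM in the lowest, median and highest fibroblast-like population, against 7.16, 17.9 and 52.3 CPM in macrophage-like populations. Its sums were 3.82-fold apart although the ranges overlap. Hspa1a was at 76.3, 96.1 and 138 CPM in the lowest, median and highest fibroblast-like population, against 56.1, 86.0 and 194 CPM in macrophage-like populations, with overlap and no called difference. Added together, the pair stood at 382 CPM in mural-like, 337 CPM in mesothelial-like, 159 CPM in fibroblast-like and, lowest of these 4, 116 CPM in macrophage-like cells. Hspa1a gave 62.6% of the pair's reads in fibroblast-like cells, against 86.6% in macrophage-like cells.

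How reads of near-identical copies were shared out is not given in the sources used here, so the levels of 4 members are uncertain. Of the distinct stretches of 50 bases in the longest Hspa1a transcript, 58.8% also occur in Hspa1b, and of those in Hspb1 51.6% occur in Hsp25-ps1. Hsp25-ps1 was at 133 CPM in fibroblast-like cells, against 3.75 CPM in macrophage-like cells, the direction of Hspb1 itself. Of the stretches in Hsp90aa1, 51.5% occur in Gm12346. The HSP70 promoters are near copies too: their RefSeq windows in build GRCm38.p6, 250 bases before to 50 bases after the start, differ at 4 of 300 bases. They are shown, Hspa1a from chr17:34972107-34972406 and Hspa1b from chr17:34959189-34959488 (both minus strand), beside Hspb1 from chr5:135887669-135887968 (plus strand), the member farthest apart between fibroblast-like and macrophage-like cells. Capitals mark GAANNTTC or TTCNNGAA, paired half-sites of the kind heat shock factor 1 binds.
Hspa1a: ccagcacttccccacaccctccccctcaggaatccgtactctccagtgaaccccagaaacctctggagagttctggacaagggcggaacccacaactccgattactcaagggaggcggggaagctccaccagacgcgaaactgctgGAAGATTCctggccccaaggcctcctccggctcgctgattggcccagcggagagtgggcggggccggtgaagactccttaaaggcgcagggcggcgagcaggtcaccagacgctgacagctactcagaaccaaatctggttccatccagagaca
Hspa1b: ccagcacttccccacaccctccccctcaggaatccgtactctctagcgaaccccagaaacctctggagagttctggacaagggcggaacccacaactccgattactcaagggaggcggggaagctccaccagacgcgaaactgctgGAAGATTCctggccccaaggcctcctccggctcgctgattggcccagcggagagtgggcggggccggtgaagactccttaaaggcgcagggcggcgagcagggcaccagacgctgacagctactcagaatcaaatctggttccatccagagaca
Hspb1: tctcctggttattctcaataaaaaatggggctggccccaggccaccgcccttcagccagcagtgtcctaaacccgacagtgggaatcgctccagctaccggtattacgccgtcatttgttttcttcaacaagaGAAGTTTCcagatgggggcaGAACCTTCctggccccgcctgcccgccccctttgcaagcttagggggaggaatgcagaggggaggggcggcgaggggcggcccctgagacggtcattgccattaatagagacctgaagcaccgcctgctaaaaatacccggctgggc

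Macrophage-like cells were clustered again without the members, and subclusters were set against the other macrophage-like cells. The 199 cells led by Lyve1 and Cd209f, genes of resident perivascular macrophages, had 19 of 33 members called higher and 1, Hsph1, lower (7.85% and 10.8% of all genes). Ier3 was at 336 CPM there, against 55.5 CPM in the rest of the class. Hspa1a was at 433 CPM there, against 93.9 CPM in the rest of the class. Egr1 was at 1789 CPM there, against 533 CPM in the rest of the class. These cells had a median of 22561 reads and 8.44% mitochondrial reads, against 65921 reads in the class, and the part of either was not tested. The 537 cells led by Ms4a6b and Selenop had 12 of 32 called higher and 1 lower (3.71% and 4%), with Atf3 at 2162 CPM there, against 937 CPM in the rest of the class. The 398 cells led by Cd226, Plbd1 and Ccr2, a monocyte receptor gene, had 7 of 33 called higher and 0 lower (5.97% and 9.83%), all 3 NR4A genes among them. At the other end, the 332 cells led by Serpinb9b and Gclm had 10 of 31 called lower and 0 higher (1.74% and 5.47% of all genes higher and lower). Egr1 was at 135 CPM there, against 622 CPM in the rest of the class, and Nr4a1 at 29.0 CPM there, against 120.4 CPM in the rest of the class. The 272 cells led by Cd200 and Mfge8 had 5 of 30 called lower and 0 higher (0.808% and 4.1%).

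Among fibroblast-like cells, the 210 led by Nr4a3, Rnd1, Il6 and Ptgs2 had 11 of 33 members called higher and 0 lower (1.2% and 3.58% of all genes). Nr4a3, itself a leading gene, was at 203 CPM there, against 43.6 CPM in the rest of the class. Nr4a2 was at 49.7 CPM there, against 14.9 CPM in the rest of the class. The 474 cells led by Cxcl10 and Ifit1, interferon-induced genes, had 5 of 33 called higher and 0 lower (2.1% and 4.15%). The 384 cells led by Mrgprg and Duox1 had 16 of 32 called lower and 0 higher (3.22% and 5.01% of all genes higher and lower). Zfp36 was at 751 CPM there, against 2075 CPM in the rest of the class, and Fosb at 633 CPM there, against 1806 CPM in the rest of the class. The 462 cells led by Nrep and Hmcn2 had 5 of 32 called lower and 0 higher (0.331% and 2.17%). Early response reads were 4.21% in the cells led by Nr4a3 and 1.49% in those led by Mrgprg.

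**Figure D4:**
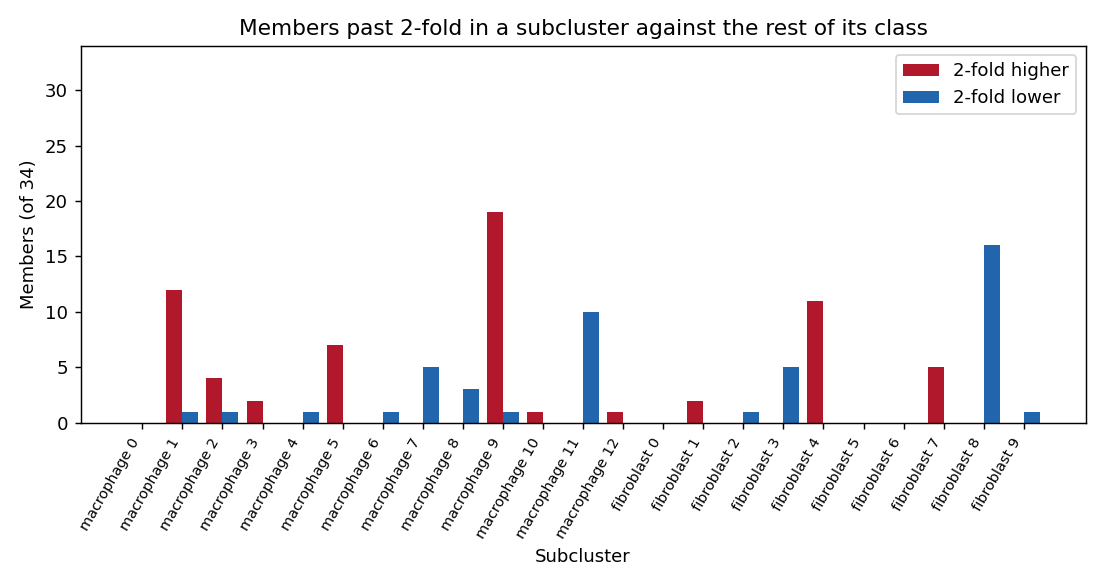
Number of the 34 members (y axis) called higher (red bars) or lower (blue bars) in each of 13 macrophage-like and 10 fibroblast-like subclusters (x axis) than in the other cells of its class. The tallest bars are 19 higher in macrophage-like subcluster 9, led by Lyve1, and 16 lower in fibroblast-like subcluster 8, led by Mrgprg.

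Across hashtag populations, the early response share of fibroblast-like cells was 3.14%, 2.92% and 3.14% in A0301, A0302 and A0303, 2.27%, 2.35% and 1.95% in A0304, A0305 and A0307, and 2.94%, 2.92% and 2.28% in A0308, A0309 and A0310. A0307, A0304 and A0310, the 3 lowest, had the most reads per fibroblast-like cell (medians of 62311, 58955 and 63847), and the part of depth was not tested. Endothelial-like cells ran from 0.833% in A0307 to 2.17% in A0310, with medians of 14270.5 and 18868 reads per cell. Macrophage-like cells ran from 0.872% in A0310 to 1.51% in A0303, with medians of 84354 and 38452 reads. A0301, with the fewest reads per macrophage-like cell (median 25524), had 1.30%. The part of depth in these 2 classes was not tested either. Within fibroblast-like cluster 3, where 6 populations had at least 50 cells, the early response share ran from 1.51% in A0307 to 2.88% in A0303. There Socs3 was at 486, 1067 and 1221 CPM in the lowest, median and highest population.

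Members whose highest population was 2-fold above the lowest numbered 7 in fibroblast-like cells (17.8% of all genes), 22 in macrophage-like cells (47.8%) and 32 in endothelial-like cells (84.7%). Within single clusters they numbered 17 in fibroblast-like cluster 3 (35.4%) and 9 in macrophage-like cluster 6 (33.7%). With hashtags called from the tag counts, a rule by which 32.9% of fibroblast-like cells had a hashtag, they numbered 12 in fibroblast-like cells and 3 in fibroblast-like cluster 3. With 76 to 155 endothelial-like cells per population, most genes varied 2-fold there. Hspa1a was at 22.2, 60.3 and 459 CPM in the lowest, median and highest endothelial-like population, with A0308 highest. Socs3 was at 52.8, 68.1 and 326 CPM in macrophage-like populations, with A0303 highest.

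**Figure D5:**
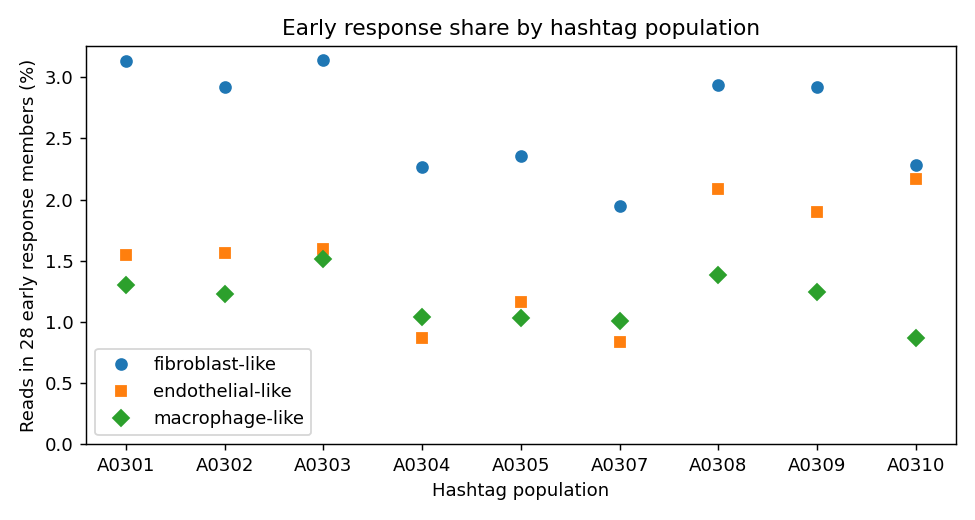
Share of reads in the 28 early response members (y axis, percent) in each of the 9 hashtag populations (x axis) for fibroblast-like (circles), endothelial-like (squares) and macrophage-like cells (diamonds). The circles lie above the diamonds in all 9 populations, and the squares run from 0.833% to 2.17%.

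Within a class, cells high in one early response member tended to be high in the others. Pearson's r over cells was taken between a gene's log2(CPM + 1) and the mean of the early response members, leaving out the gene itself. It is a description without a p, since all cells share a library and the mean followed depth (r of 0.39 in fibroblast-like, 0.60 in endothelial-like and 0.52 in macrophage-like cells). The median r of early response members was 0.44 in fibroblast-like, 0.49 in endothelial-like and 0.48 in macrophage-like cells, and 0.10, 0.15 and 0.16 for other genes in the same order. Other genes had reads in at least 20% of cells, a limit not set for members, and were not matched to them for level. Fosb was highest in fibroblast-like (0.68) and macrophage-like cells (0.66) and Egr1 in endothelial-like cells (0.78). The lowest were Dusp2 in fibroblast-like (0.05), Nr4a3 in endothelial-like (0.21) and Egr3 in macrophage-like cells (0.15). Heat shock members had a median r with the early response mean of 0.22, 0.27 and 0.24. With cells thinned to 5000 reads the early response medians were 0.38, 0.46 and 0.33, those of heat shock members 0.17, 0.17 and 0.11, and those of other genes 0.03, 0.08 and 0.04. Thinning did not remove the link to depth. The thinned mean still followed it, with r of 0.23 in fibroblast-like, 0.52 in endothelial-like and 0.28 in macrophage-like cells.

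Of the 10 genes outside the list with the highest r in each class, Ppp1r15a, Nfkbiz and H3f3b were shared by all 3 classes. Ppp1r15a, the phosphatase subunit that ends the integrated stress response, had r of 0.54 in fibroblast-like, 0.62 in endothelial-like and 0.54 in macrophage-like cells. In fibroblast-like cells the others included the metallothioneins Mt2 (0.53) and Mt1, with Pim1, Bhlhe40, Tnfaip6, Has1 and Ccnl1. In endothelial-like cells they included Apold1 (0.56), Csrnp1, Hspa5, Atf4, Ccn1 and Plk2. In macrophage-like cells they included the NF-kB inhibitors Tnfaip3 (0.56) and Nfkbia, with Pim1, Cxcl2, Cd83 and Ifrd1.

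Related genes outside the 34 were also set between fibroblast-like and macrophage-like cells, where 21.6% of all genes were called higher and 17.3% lower. Of 42 other early response genes that reached 20 CPM, 15 were called higher and 7 lower, with a median log2 fold of 0.65. Ccn1, a matricellular protein, was at 369.8 CPM in fibroblast-like cells, against 10.5 CPM in macrophage-like cells. Rgs1, a G protein regulator of leukocytes, was at 59.0 CPM in fibroblast-like cells, against 1968 CPM in macrophage-like cells. Of 18 other cytosolic heat shock genes 5 were called higher and 0 lower, with the small heat shock protein gene Hspb8 at 179 CPM in fibroblast-like cells, against 3.76 CPM in macrophage-like cells. Of 17 endoplasmic reticulum chaperones 5 were called higher and 0 lower, including Herpud1. Of 17 upstream kinases and transcription factors 1, Mapk8, was called higher and 3 lower.

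RefSeq promoter windows were found for 29 of the 34 members, all but Egr1, Egr3, Ier2, Myc and Hsp90aa1, and were searched for 6 motifs on both strands, TATAAA on the gene's strand only. The heat shock motif printed above occurred in 8 members, 4 of them heat shock genes, and in 15.1% of the 32851 windows of all genes. GCGGGGGCG, which EGR proteins bind, occurred in 8 members and 2.91% of all windows; the 8 were Fosb, Fosl2, Nr4a1, Klf2, Klf4, Zfp36, Dusp2 and Socs3. The cyclic AMP response element TGACGTCA occurred in Maff, Btg2 and Dusp1 (1.79% of all windows) and TATAAA in Fos, Junb and Gadd45b (8.32%). The CArG box of serum response factor occurred in Egr2 and Zfp36 (1.63%), and the AP-1 site TGACTCA in 0 members (5.20%). A gene with several windows counts where any of them holds the motif, and the 29 members had 38 windows. The shares for all genes are per window, so both figures are not the same measure. A match describes letters only. Zfp36 (window chr7:28379179-28379478, minus strand, CArG box in capitals) and Dusp1 (window chr17:26508423-26508722, minus strand, TGACGTCA in capitals) are shown as feedback genes of which one was called between fibroblast-like and macrophage-like cells and the other was not.
Zfp36: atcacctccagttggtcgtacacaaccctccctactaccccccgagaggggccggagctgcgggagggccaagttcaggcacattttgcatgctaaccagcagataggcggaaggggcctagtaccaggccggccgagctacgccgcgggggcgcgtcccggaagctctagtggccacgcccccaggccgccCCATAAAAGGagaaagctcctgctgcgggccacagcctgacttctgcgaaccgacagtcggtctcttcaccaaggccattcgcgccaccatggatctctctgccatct
Dusp1: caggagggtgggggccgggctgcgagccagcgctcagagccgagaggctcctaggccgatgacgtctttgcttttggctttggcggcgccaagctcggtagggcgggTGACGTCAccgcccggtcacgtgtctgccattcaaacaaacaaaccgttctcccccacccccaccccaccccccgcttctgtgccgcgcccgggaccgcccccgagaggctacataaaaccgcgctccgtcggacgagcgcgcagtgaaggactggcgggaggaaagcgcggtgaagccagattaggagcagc
Zfp36 was at 1852 CPM in fibroblast-like cells, against 777 CPM in macrophage-like cells. In GENCODE release M21, 8 members, Zfp36 and Dusp1 among them, overlap another gene, and whether counting used strand is not given in the sources used here.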

How the data were processed

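Per the file headers, the deposited transcriptome table holds whole-number counts per gene and cell, with cell names starting with the authors' hashtag call, and the deposited hashtag table holds tag counts per barcode. The submitters' processing notes name build GRCm38 and, with no order, R 3.6.3, Bowtie2 2.4.2 and cutadapt 2.10. The counts were treated as reads: no collapse to molecules is recorded. Of 12040 columns, 12 without a hashtag or doublet name were not used. Cells with under 200 genes or over 25% mitochondrial reads, 254 doublets called by the authors and 236 called by Scrublet were left out. Clustering used scanpy 1.11.5 (2000 variable genes, 30 components, 15 neighbours, Leiden resolution 1), without the members and related lists. Clusters were named from markers, with limits set after the clusters were seen. Reads were summed per class and scaled to CPM. The fold rule was tested on simulated data. Intervals are exact Poisson intervals. The results were recomputed with per-cell means, thinning, gap filling, other filters and resolution. Members and lists were chosen with earlier results of these data known. Named genes are all 34 members by role, with the largest and smallest fold per role, 3 genes per direction of each related list and the 10 best-correlated others, not all of which are reported here.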

Additional observations from a re-analysis of the deposited data

Results flagged for a closer look

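The share of reads in the 6 heat shock members of macrophage-like cells stood apart in 1 hashtag population. A0301 had 0.127%, and the next highest population had 0.0981%. The gap was past Dixon's 95% critical value for 9 samples. Of the 81 macrophage-like cells in A0301 the median was 25524 reads, the lowest of the 9 populations. Of 10 groups examined, 1 was past its limit, and chance flags about 1 in 20 such groups. The part of depth in this value was not tested.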

How the results depend on the processing

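Of 222 alternative values, 197 stayed within 1.5 times or 1 SD of the reported value and 25 moved; the cause was not tested. With each cell weighted the same, and likewise thinned to 5000 reads, 4 members were higher in endothelial-like than in macrophage-like cells and 17 in fibroblast-like than in endothelial-like cells. Thinning gave 4 lower in endothelial-like cells. Lower counts against macrophage-like cells were 1 for fibroblast-like (thinned, at most 10% mitochondrial reads, no minimum CPM), 1, 2, 1 and 1 for mural-like and 3, 4, 2 and 2 for mesothelial-like (per-cell mean, thinned, at most 10% mitochondrial reads, no minimum CPM), and 5 for T cell-like (per-cell mean and thinned). Calling hashtags from the tag counts gave 3 members past 2-fold in fibroblast-like cluster 3 and 12 in fibroblast-like cells. Thinning gave a median r of 0.33 in macrophage-like cells.

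Without 1 hashtag population at a time, an alternative chosen after seeing the data, higher and lower counts against macrophage-like cells ranged over 21 to 21 and 0 to 1 (fibroblast-like), 11 to 14 and 2 to 3 (endothelial-like), 20 to 23 and 0 to 1 (mural-like), 20 to 21 and 1 to 2 (mesothelial-like) and 14 to 15 and 3 to 3 (T cell-like). Fibroblast-like against endothelial-like cells gave 8 to 12 and 2 to 3. Without A0310 1 member was lower in fibroblast-like and 1 in mural-like cells, and without A0303 or A0310 2 were lower in mesothelial-like cells. Leaving out subclusters with markers of another class, also chosen after seeing the data, gave 21 higher in fibroblast-like cells.

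No paired analysis was possible because the results come from no test; classes were set side by side within the 9 hashtag populations. Tag counts were low in fibroblast-like cells (median 45, against 2226 in macrophage-like cells), which limits hashtag calls there.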
